A study of Mus musculus with 8 samples.

Results

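The genes that encode the mRNA decapping machinery and the 5′ to 3′ exonuclease of the cytoplasm were examined in mouse embryonic stem (mES) cells. The 10 genes were chosen by name, namely *Dcp2*, *Dcp1a*, *Dcp1b*, *Edc3*, *Edc4*, *Patl1*, *Ddx6*, *Lsm14a*, *Lsm14b* and *Xrn1*, and all 10 had a row among the 18694 rows of the deposited table, of which 17597 are genes and 1097 are transposable element subfamilies. The series holds 8 RNA-seq libraries from Cast x 129S mES cells in which the METTL3 protein carries a C-terminal FKBP12F36V degron, through which the compound dTAG-13 brings about its degradation. METTL3 catalyses the deposition of *N*6-methyladenosine (m6A) on mRNA. In 4 libraries the cells received dTAG-13 for 26 h, and in 4 they were left untreated. Each group holds clones C3 and H5 with 2 libraries per clone. In all 8 libraries the endogenous *Xist* promoter of 1 allele had been replaced by a TetOn promoter, and no doxycycline was given. The labels place it on the 129S allele, whereas the study's text places these clones in a line with the promoter on the Cast allele. Each clone is a single tagged line, and the labels do not say whether libraries of 1 clone came from separate cultures. Total RNA is named as the molecule in the labels and as the assay in the methods of the study, whereas the extraction protocol in the labels is one for chromatin RNA.

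The level of each gene is given as the authors' mean count, for which read counts were scaled for library size and averaged over the libraries. It is 1 value per gene over treated and untreated cells alike, so it carries no error, no value per library could be shown, and no difference between dTAG-13 and untreated cells is given for any gene. The difference between the groups is not analysed here. To compare genes of unequal length, the mean count was divided by the length of the joined exons of the gene, which gives a mean count per kb. Each level is also given as a percentile, the percentage of 13462 expressed genes (mean count 10 or higher) with a lower mean count per kb. The median of those genes was 109.8 per kb, and the middle 50% lay between 27.2 and 347 per kb.

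Decapping commits an mRNA to degradation from its 5′ end. After the poly(A) tail has been shortened, a ring of 7 LSM proteins binds the 3′ end together with PAT1B, the product of *Patl1*, and the cap is hydrolysed by DCP2 with its partner DCP1. The scaffold EDC4, the enhancer EDC3 and the helicase DDX6 with its partners of the LSM14 family bring these proteins together, many of them in cytoplasmic granules known as P-bodies, and XRN1 then digests the uncapped RNA. In stem cells this route acts on mRNAs that m6A marks for rapid turnover, among others, because the cytoplasmic reader YTHDF2 hands its targets to the deadenylation and decay machinery.

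All 10 genes were detected, with mean counts from 88.3 to 4131 and a summed mean count of 13027, 0.0800% of the sum over all genes and transposable elements. Their median level was 160 per kb, and 7 of the 10 lay above the median gene. The levels covered a wide range. *Ddx6*, at the top, was 25.6 times as high per kb as *Dcp1b*, at the bottom. The ratio was 36.9 with the exons of the comprehensive annotation, 46.8 by mean count and 56.0 by coding length.

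**Figure D1:**
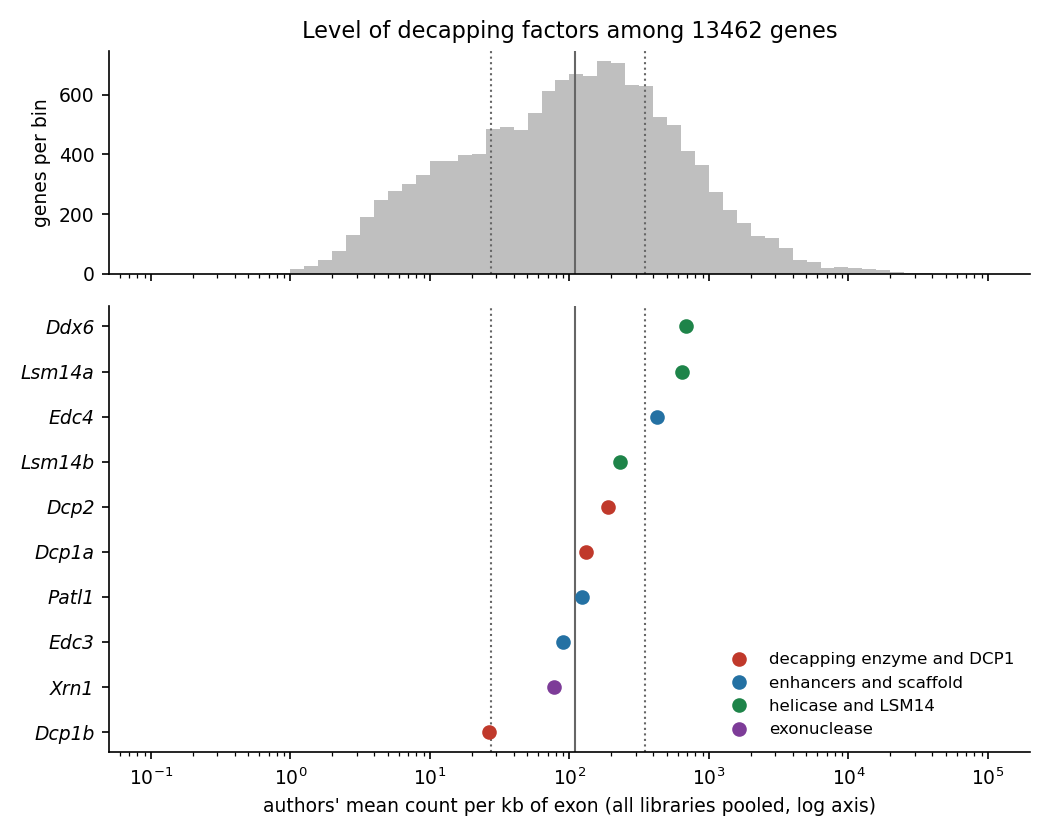
The upper panel plots the number of genes in each bin of the authors' mean count per kb of exon (log axis) for 13462 genes, and the lower panel places the 10 decapping and decay factors on the same axis, coloured by role. The solid line marks the median gene at 109.8 per kb and the dotted lines the quartiles; *Ddx6*, *Lsm14a* and *Edc4* lie above the upper quartile and *Dcp1b* lies just below the lower one.

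The decapping enzyme and its DCP1 partners were of moderate to low abundance per kb of exon. *Dcp2* (chromosome 18, 44380502 to 44424969, plus strand, GRCm38) encodes the enzyme that removes the cap. It had a mean count of 1641, and its level was 189 per kb, at percentile 61.9. By coding length and by mean count *Dcp2* stood higher, at percentile 83.3 with each. *Dcp1a* (chromosome 14, 30479535 to 30527063, plus strand) encodes the subunit that activates DCP2. Its mean count was 728 and its level 131 per kb, at percentile 53.8. *Dcp1b* (chromosome 6, 119175253 to 119221616, plus strand) encodes the paralogue of DCP1A and was the least abundant of the 10 genes, with a mean count of 88.3 and a level of 26.7 per kb, at percentile 24.8. The *Dcp1a* level was thus 4.90 times that of *Dcp1b*, and *Dcp1a* accounted for 83.0% of the summed *Dcp1* level per kb. *Dcp2* stood at 1.20 times that sum. The ratio of *Dcp2* to summed *Dcp1* was 2.85 by coding length, 2.01 by mean count and 1.84 with the comprehensive annotation. The transcript of *Dcp2* is mostly noncoding.

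The helicase and 1 of its LSM14 partners had the highest levels per kb. *Ddx6* (chromosome 9, 44604892 to 44640731, plus strand) encodes an RNA helicase that joins translational repression to decapping. It had a mean count of 4131 and a level of 681 per kb, at percentile 86.5. *Lsm14a* (chromosome 7, 34344646 to 34393315, minus strand), whose product binds DDX6 and is needed for P-body assembly, had a mean count of 1897 and a level of 644 per kb, at percentile 85.8. Its paralogue *Lsm14b* (chromosome 2, 180024987 to 180035465, plus strand), known for its role in oocytes, had a mean count of 666 and a level of 230.3 per kb, at percentile 66.5. *Lsm14a* was 2.80 times as high as *Lsm14b*, but this ratio was 1.34 when the exons of the comprehensive annotation were joined, in which *Lsm14a* is 6136 bases long in place of 2944. LSM14A, LSM14B, EDC3, PAT1B and 4E-T (the product of *Eif4enif1*) are all known to bind DDX6. The 5 genes that encode them had a summed level of 1362 per kb, so that *Ddx6* RNA stood at 0.500 of the sum. By coding length *Ddx6* stood at 0.987 of the sum.

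The enhancers and the scaffold differed among themselves. *Edc4* (chromosome 8, 105880881 to 105894908, plus strand) encodes the large scaffold on which the decapping complex assembles. Its mean count was 2036 and its level 426 per kb, at percentile 79.0. *Edc3* (chromosome 9, 57708540 to 57752499, plus strand), whose product binds both DCP2 and DDX6, had a mean count of 512 and a level of 89.7 per kb, at percentile 45.5. *Edc4* was 4.75 times as high as *Edc3* per kb of exon and 1.44 times as high per kb of coding sequence. The level of *Edc3* is uncertain, since 22.5% of its exon bases lie over exons of *Clk3* on the opposite strand and it is unclear whether strand was used in counting. *Patl1* (chromosome 19, 11912399 to 11945091, plus strand), whose product links the LSM ring to decapping, had a mean count of 516 and a level of 122 per kb, at percentile 52.5. It was 3.30 times as high as *Patl2*, a paralogue known from oocytes, which had a level of 37.1 per kb.

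The cytoplasmic exonuclease lay below the median gene per kb of exon. *Xrn1* (chromosome 9, 95954760 to 96057803, plus strand) degrades decapped RNA in the cytoplasm. It had a mean count of 811 and a level of 77.3 per kb, at percentile 42.7. *Xrn2*, its nuclear relative, had a mean count of 4357 and a level of 1269 per kb, 16.4 times that of *Xrn1*. This ratio was 5.37 by mean count, 9.73 by coding length and 25.1 with the comprehensive annotation. The length of *Xrn1* bears on these values, since its joined exons span 10481 bases, and 18585 in the comprehensive annotation. Per kb, *Xrn1* had rank 9 among the 10 genes by each of the 4 lengths tried, and by mean count it had rank 5. It stood above the median gene by mean count, at percentile 68.4, and when genes of low mean count were kept, at percentile 55.6. Antisense genes cover 1.90% and 1.76% of its exon bases.

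Only positions in the order that are far apart can be read, because the table gives no spread over libraries for a level. *Ddx6* and *Lsm14a* differed by a ratio of 1.06, *Dcp1a* and *Patl1* by 1.07, *Edc3* and *Xrn1* by 1.16 and *Lsm14b* and *Dcp2* by 1.22, and whether these neighbours differ beyond their spread is unknown. *Ddx6* had rank 1 and *Dcp1b* rank 10 with all 4 lengths and by mean count. *Dcp2*, *Dcp1a*, *Patl1*, *Edc3* and *Xrn1* each lay above the median gene under some choices of length or filter and below it under others. *Lsm14a* had rank 2 or 3, and *Edc4* moved between ranks 2 and 5.

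**Figure D2:**
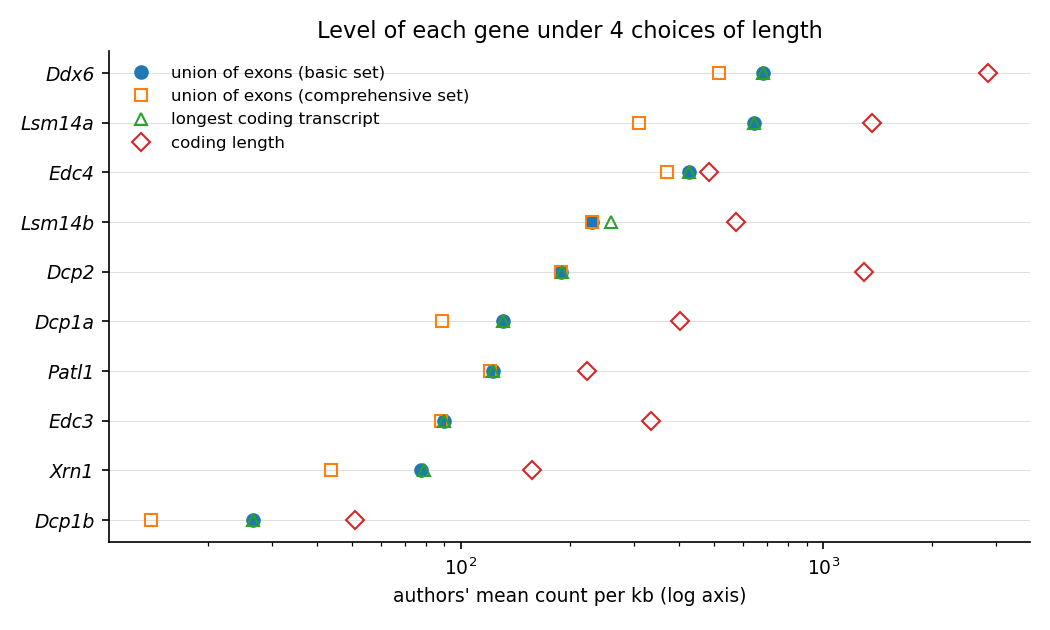
The authors' mean count per kb (log axis) of each of the 10 genes is plotted with 4 lengths as divisor: joined exons of the basic transcript set, joined exons of the comprehensive annotation, the longest protein-coding transcript and the coding length. *Ddx6* is highest and *Dcp1b* lowest with each divisor, while *Dcp2* rises from 189 to 1293 per kb when only coding bases are counted.

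The rest of the pathway was read from lists of 27 genes. The LSM1-7 ring had the highest median per kb, at 864, with all 7 genes above the median gene, from *Lsm1* at 221 to *Lsm3* at 2694 per kb. This order rests on the division by length. By mean count the median of the ring was 975, below that of the cofactors and adaptors at 1040. *Lsm1*, the subunit that is particular to the cytoplasmic ring, was the lowest of the 7. The other 6 subunits are shared with the nuclear LSM2-8 ring of the spliceosome. Of these, *Lsm2* and *Lsm6* stood at 583 and 316 per kb, and *Lsm4*, *Lsm5* and *Lsm7* at 1807, 1215 and 864 per kb. Per kb of exon, the level of *Lsm1* was close to those of *Lsm14b* and *Dcp2*. By mean count *Lsm1* stood at 587, *Lsm14b* at 666 and *Dcp2* at 1641. Among 8 cofactors and adaptors the median was 306 per kb and 7 lay above the median gene. *Pnrc2*, which encodes an activator of DCP1A, stood at 493 per kb and its relative *Pnrc1* at 183 per kb. *Nbdy*, which encodes a microprotein that binds EDC4, stood at 259.7 per kb. *Eif4e*, which encodes the cap-binding protein that competes with decapping, stood at 645 per kb, and *Eif4e2* and *Gigyf2*, whose products repress translation together, at 366 and 336 per kb. *Eif4enif1* stood at 276 per kb.

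Among 6 other enzymes of cap metabolism and 5′ to 3′ decay, the median was 215 per kb and 4 lay above the median gene. *Nudt3*, which encodes another decapping enzyme, had a level of 219.8 per kb, and *Dxo*, which encodes an enzyme that removes incomplete caps, 211 per kb, so that *Dcp2* stood at 0.858 and 0.895 of them. Neither order held both per kb and by mean count. *Dcp2* over *Nudt3* ranged from 0.436 by the longest transcript to 1.69 by mean count, and *Dcp2* over *Dxo* was 4.82 by coding length, 5.13 by mean count and 1.16 with the comprehensive annotation. *Nudt16*, also a gene for a decapping enzyme, was low at 18.2 per kb, and *Nudt12*, whose product removes NAD caps, stood at 71.4 per kb. *Dcps*, which encodes the scavenger enzyme that hydrolyses the cap left over after 3′ to 5′ decay, stood at 609 per kb. Of 6 genes that link m6A or AU-rich RNA to decay, 5 lay above the median gene. *Ythdf2* stood at 1009 per kb, above every one of the 10 decapping and decay factors. By mean count it was close to *Ddx6*, at 4165 against 4131. *Rida*, which encodes a bridge between YTHDF2 and endonucleolytic decay, stood at 657 per kb and *Upf1* at 372 per kb. The binders of AU-rich elements ranged from *Zfp36* at 19.0 per kb through *Zfp36l2* at 129 to *Zfp36l1* at 277 per kb.

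**Figure D3:**
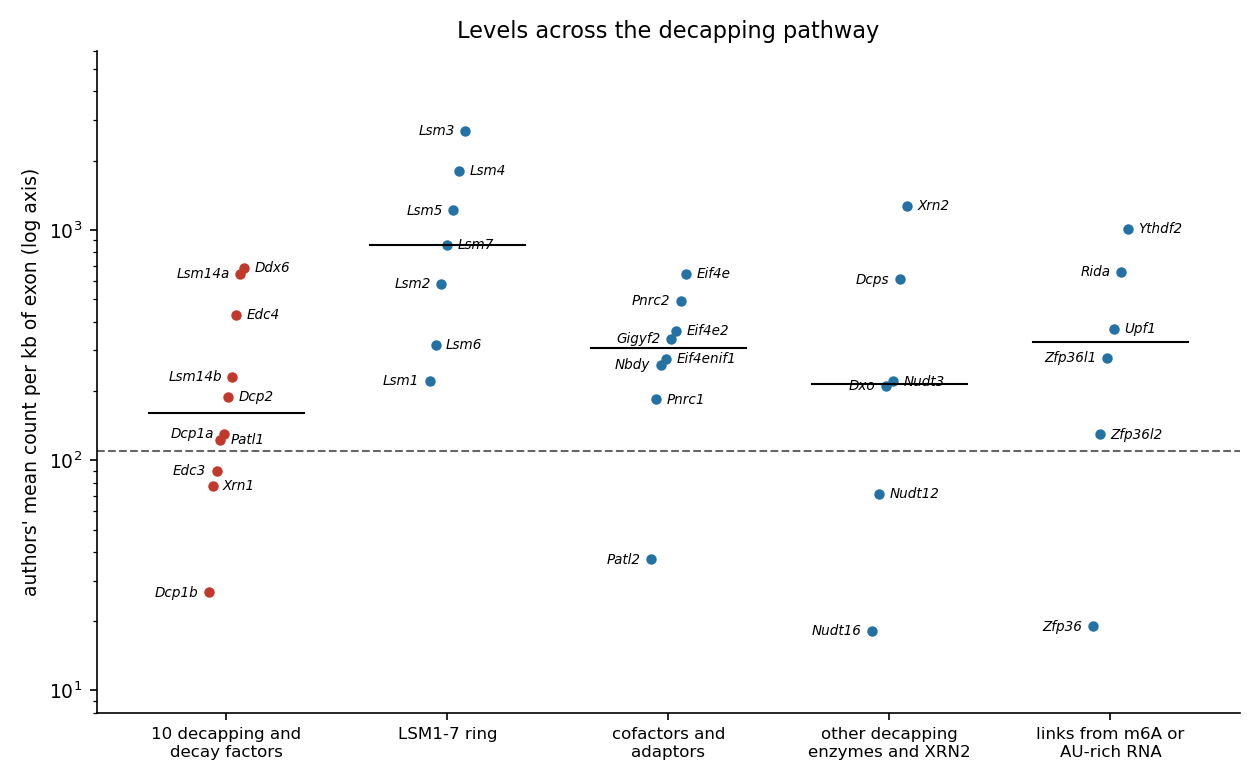
Each point is 1 gene, the vertical axis is the authors' mean count per kb of exon (log axis), short black lines are group medians and the dashed line is the median of 13462 genes. The LSM ring has the highest median at 864 per kb, and *Dcp1b*, *Patl2*, *Nudt16* and *Zfp36* are the genes below 50 per kb.

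The sequences before the starts of the DCP1 genes are shown because this pair of paralogues had the larger difference in level among the 2 pairs within the 10 genes. The set of RefSeq (GRCm38.p6) starts used here covers 8 of the 10 genes and lacks *Ddx6* and *Dcp2*. The 250 bases before the start are printed 5′ to 3′ on the strand of the gene. The match to the ETS core motif CCGGAAG, on either strand, is in capitals.
Dcp1a (chr14:30479315-30479564, plus strand): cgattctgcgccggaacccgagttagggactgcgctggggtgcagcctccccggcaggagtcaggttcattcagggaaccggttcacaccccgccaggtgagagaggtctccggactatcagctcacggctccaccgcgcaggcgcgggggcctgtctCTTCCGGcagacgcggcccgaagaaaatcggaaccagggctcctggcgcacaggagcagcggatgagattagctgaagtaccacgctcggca
Dcp1b (chr6:119175003-119175252, plus strand): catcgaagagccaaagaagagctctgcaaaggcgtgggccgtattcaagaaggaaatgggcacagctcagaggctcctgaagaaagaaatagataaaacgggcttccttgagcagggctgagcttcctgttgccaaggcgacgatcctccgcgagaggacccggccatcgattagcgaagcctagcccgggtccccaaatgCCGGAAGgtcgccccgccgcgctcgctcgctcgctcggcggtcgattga

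Both windows held 23 CpG dinucleotides, at percentile 86.7 of 32851 RefSeq promoter windows. Both held the ETS core, which 6.91% of all windows contain. The match begins 92 bases before the start of *Dcp1a*, on the opposite strand, and 49 bases before that of *Dcp1b*, on the same strand. None of the other 6 windows held it. Across the 8 windows the number of CpGs ranged from 5 for *Edc4* through 8 for *Edc3* and 12 for *Xrn1* to 28 for *Lsm14a* and 34 for *Lsm14b*, with a median of 23 against 6 for all windows. The 32851 windows were not limited to expressed protein-coding genes, which the 8 are, so the CpG values and motif percentages compare unlike sets. The TATA box (TATAAA, in 12.4% of all windows) matched in 0 of the 8, the CCAAT box (CCAAT, 33.8%) in 3 and the GC box (GGGCGG, 32.7%) in 4, each searched on both strands. The E-box (CACGTG, in 6.02% of all windows) and the longer NRF1 (0.782%) and YY1 (0.207%) motifs matched in 0 of the 8. These matches describe letters in a window and are not binding sites. Of the 8 windows, 3 reach into the gene as GENCODE draws it, by the last 30 bases for *Dcp1a*, by 29 bases for *Edc3* and by all 250 bases for *Lsm14a*. The ETS match of *Dcp1a* lies outside those 30 bases.

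Transcript architecture was described because m6A tends to lie in long internal exons and near stop codons. With 1 transcript per gene, 8 of the 10 genes were longer than the median of 3003 bases for 13035 expressed protein-coding genes. The median of the 10 was 5140 bases. *Dcp2* was the longest at 8616 bases, of which 7240 follow the stop codon, at percentile 99.1. *Ddx6*, *Edc3* and *Dcp1a* have 4250, 4004 and 3757 bases after the stop codon. *Edc4* and *Xrn1* are built otherwise, with 29 and 42 exons and 363 and 218 bases after the stop codon in the transcript used. *Xrn1* also has a longer transcript of 10256 bases. The DCP1 genes carry long internal exons, of 759 bases in *Dcp1a* and 837 bases in *Dcp1b*, at percentiles 89.7 and 91.1. GC content was below the median of 50.7% in 6 of the 10, with *Xrn1* at 42.6% and *Dcp2* at 42.7%.

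The consensus in which METTL3 methylates, DRACH (A, G or T; A or G; A; C; A, C or T, read on the transcript strand), had a similar median density in these transcripts and in all. It was 20.3 per kb in the 10 genes and 20.1 per kb in all 13035, and 6 of the 10 lay above the median gene. *Patl1* had the lowest density at 14.9 per kb. The core motif GGACT was less dense, at a median of 0.704 per kb against 1.05 per kb, and 2 of the 10 lay above the median gene, *Lsm14b* at 1.58 and *Ddx6* at 1.15 per kb. *Edc3* and *Edc4* lay at percentiles 49.9 and 49.5. *Dcp1a* had the lowest density, with 1 match in 5576 bases, at percentile 8.26. By number of GGACT matches per transcript the 10 genes were not low, with a median of 3.5 against 3, and 5 of the 10 lay above the median gene. A match shows the letters only, and which of these sites carry m6A was not measured here.

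**Figure D4:**
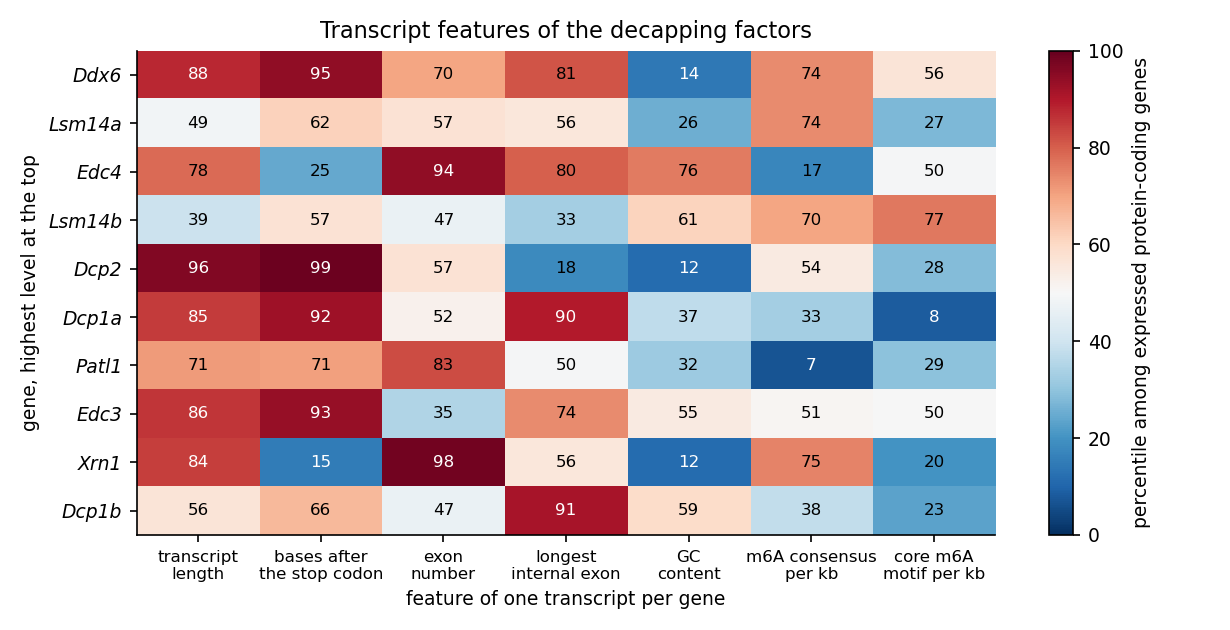
Each cell gives the percentile of 1 gene (rows, highest level at the top) for 1 transcript feature (columns) among 13035 expressed protein-coding genes (12081 with an internal exon for that column), from 0 (blue) to 100 (red). *Dcp2* stands at percentile 99.1 for bases after the stop codon, *Xrn1* at 98.2 for exon number and *Dcp1a* at 8.26 for the density of the core m6A motif.

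GGACT matches are printed for *Dcp1a* and *Edc4* as examples of different placement. They are the single match of *Dcp1a*, which follows the stop codon, and the 4 matches in the coding sequence of *Edc4*, whose other match precedes the start codon. Other genes shared these placements. In the transcript used for *Xrn1*, of 5499 bases, all 3 matches lie in coding sequence. The longer *Xrn1* transcript of 10256 bases was not searched for GGACT, so matches elsewhere in the gene are unknown. The 2 matches of *Lsm14a* and 3 of *Patl1* follow the stop codon. The motif is in capitals with 8 bases on either side, read from GENCODE vM21 transcripts, and coordinates of the motif are in GRCm38, plus strand.
Dcp1a, exon 10 (chr14:30525938-30525942): ctccgtccGGACTgtccacag
Edc4, exon 6 (chr8:105886184-105886188): gagagtgaGGACTgttgtgag
Edc4, exon 7 (chr8:105886330-105886334): gaggtgtgGGACTtggatatg
Edc4, exon 8 (chr8:105886781-105886785): ccctgatgGGACTgtcctggc
Edc4, exon 14 (chr8:105888038-105888042): gcccacgaGGACTtcacattt

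The labelled cell type was checked against its markers, since the cells grew on mitotically inactive fibroblast feeders and a bulk level cannot tell more cells of a type from more RNA per cell. All 10 stem cell markers lay above the median gene, from *Klf4* at 467 to *Dppa5a* at 16142 per kb, with *Pou5f1* at 8762 per kb. Of 10 feeder markers, 3 lay above the median gene, *Sparc*, *Vim* and *Fn1*, at percentiles 92.3, 90.6 and 84.3. Whether their RNA came from feeders or from stem cells was not tested. The collagen genes *Col1a1*, *Col1a2* and *Col3a1* had mean counts of 19.8, 13.8 and 8.38, *Dcn* of 7.50, *Thy1* of 116, and *Lum* and *Postn* of 1.45 and 0.768. How much feeder RNA contributes to the levels of the decapping factors was not tested.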

How the data were processed

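Total RNA-seq libraries (2 × 81 bp in the labels) were made from mES cells in 8 samples. The authors removed rRNA reads with bowtie2, aligned the rest to the N-masked mm10 genome with STAR, kept unique alignments, removed duplicates with Picard and counted genes and transposable elements with TEtranscripts under default parameters. Whether strand was used is uncertain. Their mm10 gene annotation came from the UCSC genome browser, and its version is not given in the sources used here. One table was deposited. The signal used is its mean count, which the authors made by dividing counts by size factors and averaging over the libraries. The other 5 of its 6 columns hold the authors' own comparison of both groups (fold changes, errors, statistics and p-values) and were not used, so no test was run.

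Names were matched to GENCODE vM21 (GRCm38, the build of mm10), 16660 directly and 713 through an older symbol, and 224 had no unique match. Exons of the basic transcript set were joined for lengths. The transcript with the longest coding sequence described each gene. Percentiles used genes whose mean count was 10 or higher. Mean counts added up to 16292717, of which genes held 14573411. Functions were tested on simulated data. All 10 genes, the lists and the motifs were chosen with earlier results of these data known. All genes of each list were named. Python 3.11.15, pandas 2.3.3 and scipy 1.17.1 were used.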

Additional observations from a re-analysis of the deposited data

How the results depend on the processing

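The number of genes above the median gene, 7 of 10, was 4 when the minimum mean count was 100 and between 7 and 9 under the other alternatives for filter, length and gene set. The *Dcp1a* to *Dcp1b* ratio of 4.90 was 7.92 by coding length, 8.24 by mean count and 6.35 with the comprehensive annotation. The *Lsm14a* to *Lsm14b* ratio of 2.80 was 2.48 by the longest transcript, 2.38 by coding length and 1.34 with the comprehensive annotation, and the *Patl1* to *Patl2* ratio of 3.30 was 5.72 by mean count. None of these 3 ratios fell below 1. The summed share of reads was 0.0894% of those in genes. The number of genes above the median motif density, 6 for DRACH, was 2 for GGACT and 6 with all exons joined. The comprehensive annotation and the restriction to protein-coding genes were chosen after seeing the data. No replicate could be left out and no paired analysis was possible because the column used holds 1 mean over all libraries. The depth of single libraries is unknown, so no counting interval is given.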
